A study of Rattus norvegicus with 24 samples.

Results

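The 10 genes described here encode enzymes of glycolysis and of lactate formation, followed across 24 arrays of rat germ cells. They are the lactate dehydrogenases Ldha, Ldhb and Ldhc, the glyceraldehyde phosphate dehydrogenase Gapdhs, the phosphoglycerate kinases Pgk1 and Pgk2, the phosphoglycerate mutases Pgam1 and Pgam2, the hexokinase Hk1 and the enolase Eno1. The genes were listed by symbol, and every probe set that carries exactly 1 of these symbols in the array's annotation was taken. Of the 10 genes, 9 had such a probe set, with 12 probe sets among the 31042 that were tested and 3 more, all of Hk1, among the array's rat control sets. Pgk2 was not analysed here because no probe set carries its symbol alone.

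Glycolysis turns glucose into pyruvate and yields ATP, and lactate dehydrogenase then exchanges pyruvate and lactate. Male germ cells are known for replacing the enzymes of most tissues with isozymes of their own: Ldhc, Gapdhs and Pgk2 are made in spermatogenic cells, and Pgam2 is the isozyme of muscle and of late germ cells. Pachytene spermatocytes are in meiotic prophase, when the X chromosome, which carries Pgk1, is silenced, and meiosis then gives the haploid round spermatids. Sertoli cells, the somatic nurse cells of the tubule, feed lactate to these germ cells.

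All rats were of the Brown Norway strain, with no treatment given in the labels, and the arrays formed 4 groups of 6: round spermatids of aged rats (18 months), round spermatids of young rats (4 months), pachytene spermatocytes of aged rats and pachytene spermatocytes of young rats. Each of the 12 rats gave both fractions, joined by the age and number in the labels. The cells came from an enzyme digest and a sedimentation gradient, with a stated purity above 83%, so other cells can be present. In such fractions, fewer cells of a type and less RNA per cell cannot be told apart.

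Levels are log2 array signals. Marker genes followed the labels: 7 of 7 measured round spermatid markers were higher in round spermatids and 8 of 9 pachytene markers were lower there. Of the markers of other cells, 8 of 8 for macrophages and 5 of 6 for peritubular cells were also higher in round spermatids (medians 0.83 and 0.55, beside 0.06 over all genes). For spermatogonia 5 of 8 were higher and 2 lower, for Leydig cells 1 of 7 and 4, and for blood and endothelium 2 of 4 and 1. Among all genes 49.7% were called higher and 38.6% lower, and Sertoli cell markers are given below. The part of such cells in the members that were higher in round spermatids was not tested. The deposited round spermatid arrays had a higher floor: an absent control averaged 6.90 and 6.77 in aged and young round spermatids, against 4.19 and 4.38 in aged and young pachytene spermatocytes. An offset was therefore added to the pachytene signals before cell types were compared, and dim probe sets near that floor carry little information. Among the pachytene arrays, a principal component with 73.9% of the variance set young rats 1, 10 and 11 apart. The same component also divided the ages, with every aged array (-39.58 to -16.22) below every young array (-3.78 to 86.33). Young rats 1, 10 and 11 lay farthest from the aged arrays, at 86.33, 47.06 and 44.02. Results that rest on these rats are also given without them, which removes the young end of that division by age as well. Changes were tested with limma and adjusted over all tested probe sets (Benjamini-Hochberg, threshold 0.05), and a gene was counted by its brightest probe set. In the main limma fits across cell types, the 2 fractions of a rat were treated as independent.

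The genes lie on several chromosomes of the rat assembly GRCr8, per RefSeq. Ldha (106508092 to 106517512) and Ldhc (106522140 to 106539649) are neighbours on chromosome 1, which also carries Gapdhs (95106516 to 95125918) and Pgam1 (250673152 to 250680762). Ldhb is on chromosome 4 (177159389 to 177177408), Eno1 on chromosome 5 (166002867 to 166014252), Pgk2 on chromosome 9 (27976913 to 27978479), Pgam2 on chromosome 14 (84895763 to 84897874), Hk1 on chromosome 20 (30773222 to 30874814) and Pgk1 on chromosome X (75336988 to 75352962).

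Among the genes of the 4 isozyme pairs that were compared within arrays, Gapdhs and Pgam2 were higher in round spermatids and Ldhb and Pgam1 were lower there, each by more than 1 on the log2 scale. The 250 bases before their start sites are shown because these genes are the ones on which the comparison of isozymes turns. They are RefSeq sequences of GRCr8, read 5′ to 3′ on the gene's strand, at chr1:95121056-95121305 (minus strand) for Gapdhs, chr14:84897875-84898124 (minus strand) for Pgam2, chr1:250672902-250673151 (plus strand) for Pgam1 and chr4:177177409-177177658 (minus strand) for Ldhb. Capitals mark GGGCGG on either strand (CCGCCC on the other), the GC box bound by Sp1-type factors.
Gapdhs: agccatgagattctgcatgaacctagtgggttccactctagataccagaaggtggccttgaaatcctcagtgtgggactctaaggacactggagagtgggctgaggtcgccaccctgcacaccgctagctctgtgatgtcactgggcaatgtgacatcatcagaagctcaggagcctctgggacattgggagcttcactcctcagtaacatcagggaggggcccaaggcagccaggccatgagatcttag
Pgam2: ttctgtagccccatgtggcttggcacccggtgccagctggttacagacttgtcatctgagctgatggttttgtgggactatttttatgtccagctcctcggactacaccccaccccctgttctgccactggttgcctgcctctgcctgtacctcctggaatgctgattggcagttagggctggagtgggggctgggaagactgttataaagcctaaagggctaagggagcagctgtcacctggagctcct
Pgam1: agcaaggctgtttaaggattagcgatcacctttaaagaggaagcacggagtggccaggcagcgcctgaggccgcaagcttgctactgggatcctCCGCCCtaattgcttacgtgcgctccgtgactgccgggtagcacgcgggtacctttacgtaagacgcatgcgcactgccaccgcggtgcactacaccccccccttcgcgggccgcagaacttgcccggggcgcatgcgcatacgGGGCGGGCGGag
Ldhb: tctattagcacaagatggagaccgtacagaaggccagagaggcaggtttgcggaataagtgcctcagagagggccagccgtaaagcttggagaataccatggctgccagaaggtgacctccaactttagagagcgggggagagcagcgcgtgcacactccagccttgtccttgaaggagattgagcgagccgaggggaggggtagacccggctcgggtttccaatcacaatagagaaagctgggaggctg

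The windows of Gapdhs and Pgam2 each held 2 CG pairs and no GGGCGG, whereas that of Pgam1 held 25 CG pairs and 3 matches, of which 2 overlap in the run GGGCGGGCGG. The window of Ldhb held 10 CG pairs and no match. Over all 33469 windows of this length the median was 5 CG pairs, and 30.5% held the motif. Of the 11 listed start sites of 9 member genes, 5 held it, those of Ldha and Pgk2 included, so presence of the motif did not follow the division into somatic and testis isozymes. The Gapdhs start site lies inside the annotated gene. TGACGTCA, the full cAMP response element, was present in 1 member window, that of Ldha, and in 1.59% of all windows.

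The first comparison asks how the isozymes differed between haploid and meiotic cells. In round spermatids 5 of the 9 measured genes were higher (Gapdhs, Hk1, Pgam2, Eno1 and Ldha) and 4 were lower (Ldhb, Pgam1, Pgk1 and Ldhc). Among all 14217 genes 49.7% were called higher and 38.6% lower, so the number of calls is no feature of these genes, and their median difference of 0.06 lay beside one of 0.06 over all genes. The members differed among themselves in size and sign: Gapdhs was 3.06-fold higher and Ldhb 5.04-fold lower.

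Gapdhs, the sperm form of glyceraldehyde phosphate dehydrogenase, which is bound to the fibrous sheath of the tail, ran from 14.44 to 14.59 (median 14.46) in aged round spermatids and from 14.54 to 14.69 (14.58) in young round spermatids. In pachytene spermatocytes it ran from 12.20 to 12.92 (12.29) in aged and from 12.80 to 14.29 (13.45) in young rats. No round spermatid array overlapped a pachytene array, and the round spermatid level was higher in 12 of 12 rats, by 1.61 ± 0.13 (SE; adjusted p = 5.78e-11, limma). The gap was 2.07 in aged and 1.14 in young rats, and the young pachytene arrays spread widest. All 12 of 12 late spermiogenesis markers were also higher in round spermatids.

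Pgam2, the muscle-type mutase that moves a phosphate within phosphoglycerate, ran from 13.35 to 13.47 (median 13.41) in aged round spermatids and from 13.27 to 13.43 (13.35) in young ones. It ran from 12.24 to 12.53 (12.44) in aged and from 11.83 to 12.69 (12.15) in young pachytene spermatocytes. The cell types did not overlap, and the difference of 1.07 ± 0.06 (adjusted p = 1.09e-13, limma) was a 2.11-fold higher level in round spermatids.

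Its partner of most tissues, Pgam1, went the other way. It ran from 9.46 to 9.80 (median 9.55) in aged and from 9.58 to 10.28 (9.83) in young round spermatids, against 10.44 to 10.72 (10.64) in aged and 11.11 to 12.06 (11.39) in young pachytene spermatocytes. The cell types again did not overlap, and Pgam1 was 2.53-fold lower in round spermatids (-1.34 ± 0.09, adjusted p = 4.71e-12, limma).

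Ldhb, the heart-type subunit of lactate dehydrogenase, showed the largest difference of the members. It ran from 8.69 to 9.04 (median 8.85) in aged and from 9.26 to 9.82 (9.32) in young round spermatids, against 10.48 to 11.02 (10.85) in aged and 11.82 to 12.70 (12.04) in young pachytene spermatocytes. All 4 groups were separated from each other, in this order, and the level was lower in round spermatids by -2.33 ± 0.09 (adjusted p = 1.66e-16, limma) and in 12 of 12 rats. Of 15 measured Sertoli cell markers 13 were lower in round spermatids too, with array means of 8.07 to 8.43 and 8.45 to 8.90 in aged and young round spermatids, against 9.42 to 9.74 and 10.15 to 10.77 in aged and young pachytene spermatocytes. Their part in the differences of Ldhb and Pgam1 was not tested.

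Ldhc, the testis form of lactate dehydrogenase, was among the brightest signals in both cell types and changed little. It ran from 14.46 to 14.49 (median 14.48) in aged and from 14.37 to 14.49 (14.45) in young round spermatids, against 14.74 to 14.82 (14.78) in aged and 14.51 to 14.78 (14.73) in young pachytene spermatocytes. The ranges did not overlap, and the level was 1.21-fold lower in round spermatids (-0.28 ± 0.02, adjusted p = 1.96e-10, limma). The brightest probe set on any array was at 15.5 in round spermatids and 15.2 in pachytene spermatocytes before the cell types were put on 1 scale, and whether the signal of Ldhc is compressed near that ceiling was not tested.

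Ldha, the muscle-type subunit, differed by 0.06 ± 0.02 (adjusted p = 0.0286, limma) and was higher in round spermatids in 10 of 12 rats. Its ranges overlapped, at 13.58 to 13.65 in aged and 13.42 to 13.62 in young round spermatids, against 13.49 to 13.59 in aged and 13.33 to 13.51 in young pachytene spermatocytes. The adjusted p was 0.0726 without young rats 1, 10 and 11, and the 95% interval of the difference ended at 0.10. Eno1, the enolase of most tissues, was higher in 12 of 12 rats without overlap, by 0.31 ± 0.03 (adjusted p = 2.24e-09, limma), a 1.24-fold difference.

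**Figure D1:**
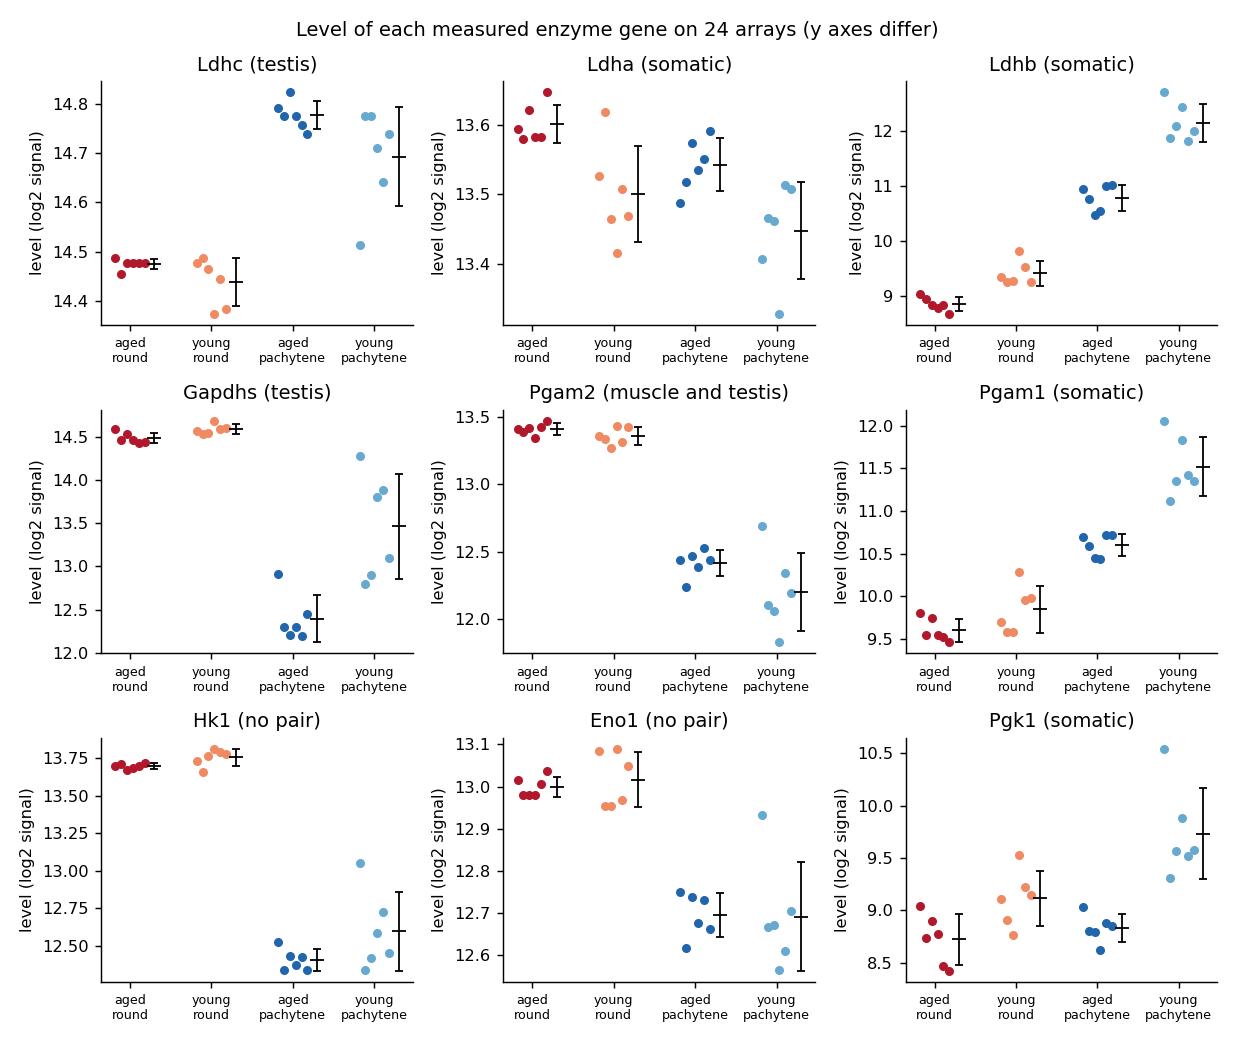
Level of the brightest probe set of each measured gene (log2 signal, after the background offset and quantile normalization of 24 arrays), with 1 point per array, and the mean and SD of the 6 arrays of each group as a bar. Gapdhs, Pgam2 and Hk1 sit above every pachytene array in round spermatids, Ldhb and Pgam1 sit below every pachytene array, and the Ldhc and Ldha axes span less than those of the other genes.

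Pgk1, the X-linked kinase that makes the first ATP of the pathway, has 3 probe sets, and they did not move alike. The brightest, 1388318_at, ran from 8.43 to 9.04 (median 8.75) in aged and from 8.77 to 9.53 (9.13) in young round spermatids, against 8.62 to 9.04 (8.83) in aged and 9.31 to 10.54 (9.57) in young pachytene spermatocytes. Its difference of -0.36 ± 0.11 (adjusted p = 0.00477, limma) passed the test in young rats alone (-0.59, adjusted p = 0.0109) and did not in aged rats alone (-0.11, adjusted p = 0.309). A second set, 1387361_s_at, whose suffix marks probes that can match more than 1 transcript, differed by -0.06 (adjusted p = 0.52), and the mean of the 3 sets by -0.13 (adjusted p = 0.0667). The third, 1368906_at, stayed between 6.46 and 6.58 on all arrays, below the absent control at 6.73 to 6.86, and so gave no level. The mean of the 3 sets includes it.

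Hk1, which phosphorylates glucose at the entry of the pathway, is the member with most probe sets. Its brightest, 1386929_at, ran from 13.67 to 13.72 (median 13.70) in aged and from 13.66 to 13.81 (13.77) in young round spermatids, against 12.34 to 12.52 (12.40) in aged and 12.34 to 13.05 (12.52) in young pachytene spermatocytes. The cell types did not overlap, and the level was 2.34-fold higher in round spermatids (1.23 ± 0.05, adjusted p = 8.45e-16, limma). The probe set 1398725_at was higher by 0.92 (adjusted p = 8.14e-19, limma).

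The array's control sets for hexokinase read the 3′ end, the middle and the 5′ part of the transcript separately, and their differences between cell types were unequal. The 3′ set was higher in round spermatids by 1.52 (adjusted p = 1.99e-18), the middle set by 0.56 (adjusted p = 1.63e-09) and the 5′ set by 0.33 (adjusted p = 0.2), in a limma fit that included the control sets and was added after the data were seen. Within an array the 3′ minus the 5′ signal had a median of 1.81 in aged and 2.01 in young round spermatids, against 0.13 in aged and 0.49 in young pachytene spermatocytes. In aged rats the cell types were apart (1.70 to 2.63 in round, -0.03 to 0.36 in pachytene). In young rats they overlapped widely (0.41 to 2.63 in round, 0.28 to 2.45 in pachytene). The same difference for Gapdh, the common form of glyceraldehyde phosphate dehydrogenase, had medians of 0.58 and 0.54 in aged and young round spermatids, against 0.26 and 0.03 in aged and young pachytene spermatocytes. In mouse, germ cells are known to make Hk1 transcripts with a 5′ end of their own. The measured difference of Hk1 thus varied with the position of the probe set along the transcript, and the part of RNA quality or of transcript forms in it was not tested.

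**Figure D2:**
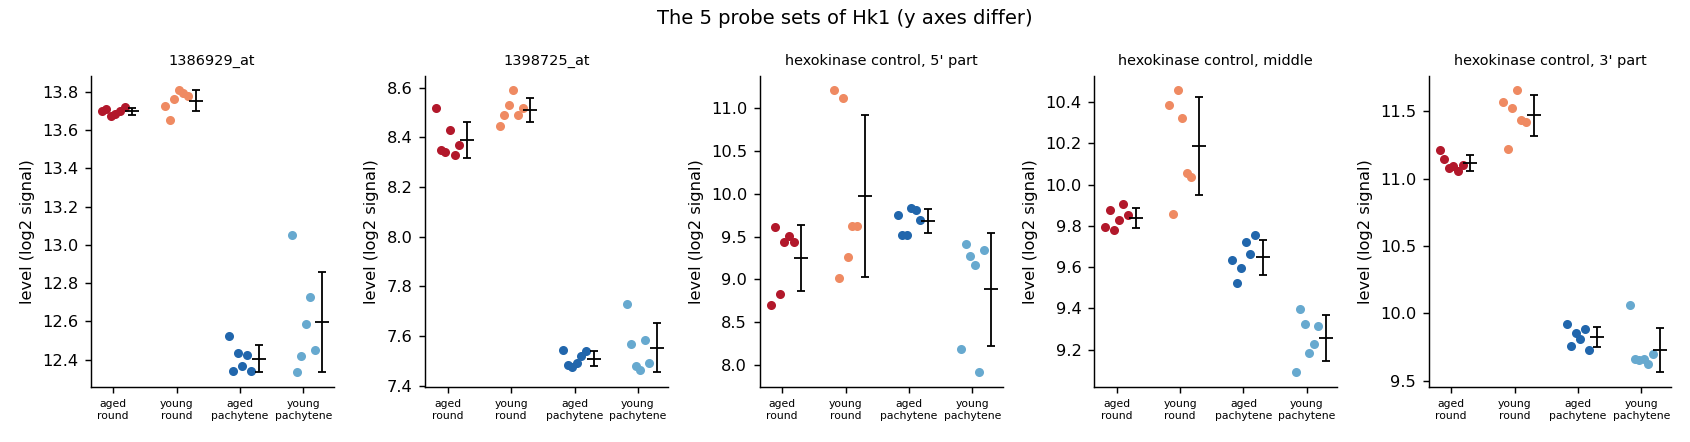
Level (log2 signal, 24 arrays on 1 scale) of the 5 probe sets of Hk1 in aged and young round spermatids and aged and young pachytene spermatocytes, with 1 point per array and the mean and SD of 6 arrays. The gap between cell types is widest at the 3′ control set (difference 1.52) and smallest at the 5′ control set (0.33), where the groups overlap.

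The second comparison asks what age did to the same genes in pachytene spermatocytes. Of the 9 measured genes 4 were lower in aged cells (Ldhb, Pgam1, Pgk1 and Gapdhs) and 0 were higher. Among all genes 19.3% were called lower and 25.5% higher, and the members' median difference was -0.18, beside 0.05 over all genes. Of the 5 others, all at an adjusted p above the threshold (limma), Eno1 differed by 0.00, Ldha by 0.09, Ldhc by 0.08, Pgam2 by 0.19 and Hk1 by -0.18. By an unadjusted p under 0.05 in limma, 0 of the 9 were higher as well. Pgam2 passed as higher without young rat 1, at 0.28 (adjusted p = 0.0139), and without young rats 1, 10 and 11, at 0.27 (adjusted p = 0.00853, limma). With each array centred on its median, Pgam2, Ldha, Ldhc and Eno1 passed as higher.

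Ldhb ran from 10.63 to 11.12 (median 10.97) in aged pachytene spermatocytes, against 11.83 to 12.62 (12.03) in young ones. Every aged array was below every young array, a 2.32-fold lower level (-1.22 ± 0.14, adjusted p = 0.000274, limma). Pgam1 ran from 10.60 to 10.85 (median 10.77) in aged cells, against 11.21 to 12.05 (11.45) in young cells, again with no overlap and 1.78-fold lower (-0.83 ± 0.12, adjusted p = 0.000695, limma).

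Pgk1 (1388318_at) ran from 8.55 to 9.11 (median 8.85) in aged cells, against 9.44 to 10.69 (9.73) in young cells. It was 2.06-fold lower without overlap (-1.04 ± 0.17, adjusted p = 0.00117, limma), and 1387361_s_at fell by 0.70 (adjusted p = 0.00693), whereas the dim 1368906_at differed by -0.03 (adjusted p = 0.659). Sertoli cell markers moved in the same direction: 13 of 15 measured were lower in aged pachytene fractions and 0 were higher. Their array mean ran from 9.13 to 9.51 in aged fractions, against 9.96 to 10.66 in young fractions, and 12 and 14 of the 15 were above the array median in these groups. The part of those cells in the differences of Ldhb, Pgam1 and Pgk1 was not tested.

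Gapdhs ran from 12.17 to 12.83 (median 12.25) in aged cells, against 12.71 to 14.23 (13.38) in young cells. Of the aged arrays 5 of 6 were below every young array, while aged rat 2, at 12.83, lay within the young range. The level was 2.07-fold lower in aged cells (-1.05 ± 0.24, adjusted p = 0.00608, limma). Young rats 1, 10 and 11 were the highest, at 14.23, 13.75 and 13.83, and without them the difference was -0.51 (adjusted p = 0.0175). Late spermiogenesis markers moved with it: 11 of 12 were lower in aged fractions, with array means of 13.04 to 13.57, against 13.45 to 14.52 in young fractions. Their part in the difference of Gapdhs was not tested.

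**Figure D3:**
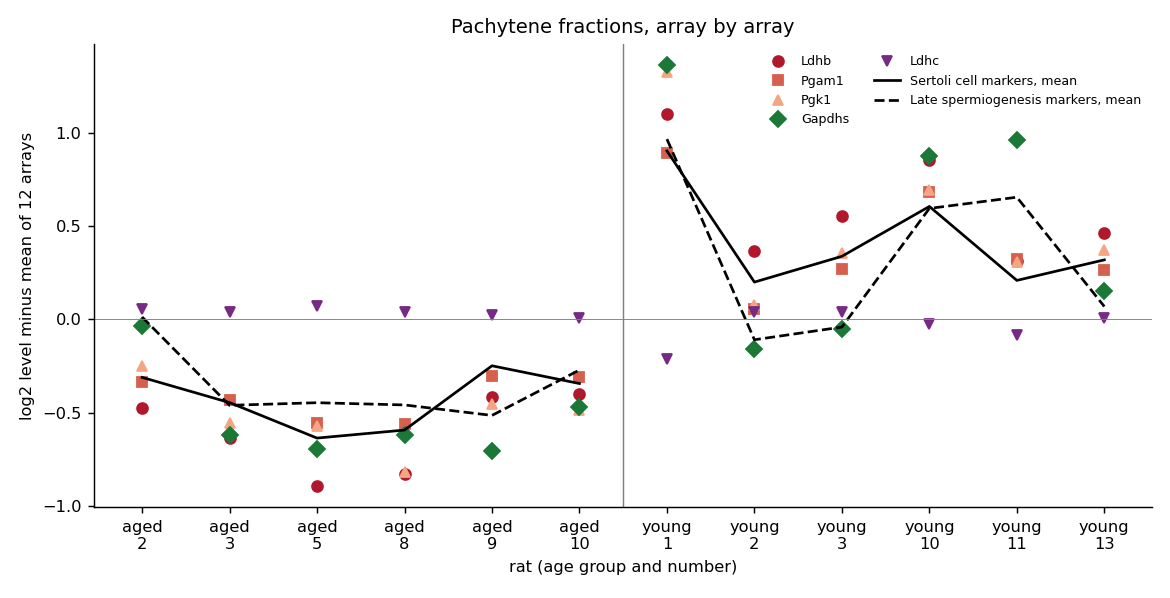
Level of 5 members in each pachytene fraction (log2 signal minus the mean of the 12 arrays), with 1 column per rat, aged rats left of young rats. The solid line is the mean of the Sertoli cell markers and the dashed line that of the late spermiogenesis markers. Ldhb, Pgam1 and Pgk1 lie below 0 in all 6 aged rats, Gapdhs is highest in young rats 1, 10 and 11, and Ldhc stays near 0.

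The third comparison is the same in round spermatids. Here 1 member was lower in aged cells, 1 was higher and 7 did not pass the test. Among all genes 12.6% were called lower and 12.2% higher, so the count is near the background. The members' median was -0.05, beside -0.001 over all genes.

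Ldhb was the lower gene. It ran from 8.43 to 8.74 (median 8.57) in aged round spermatids, against 8.95 to 9.53 (9.01) in young ones, with no overlap and a 1.45-fold lower level (-0.53 ± 0.09, adjusted p = 0.0027, limma). Of the 15 Sertoli cell markers 7 were lower and 0 higher, with array means of 7.96 to 8.30 in aged and 8.31 to 8.77 in young round spermatids. Ldha was the higher gene, at 13.64 to 13.71 (median 13.65) in aged and 13.47 to 13.68 (13.54) in young cells. These ranges overlapped, and its difference of 0.11 ± 0.03 (adjusted p = 0.0467, limma) lost its call in 11 of 12 fits that left out 1 rat, with differences of 0.09 to 0.13.

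The remaining genes had smaller differences or wider spreads. Pgk1 was at -0.35 ± 0.12 (adjusted p = 0.0512, and 0.016 to 0.0376 without young rat 2, young rat 3 or aged rat 2) and Pgam1 at -0.25 (adjusted p = 0.162). Gapdhs, at 14.48 to 14.64 in aged and 14.59 to 14.76 in young cells, was at -0.11 (adjusted p = 0.0668), with 4 of 6 aged arrays below every young array. Hk1, Eno1, Ldhc and Pgam2 differed by -0.05, -0.02, 0.04 and 0.05 (limma). The control sets of hexokinase read otherwise: the 3′ set was lower in aged round spermatids by -0.40 (adjusted p = 0.00264) and the middle set by -0.38 (adjusted p = 0.0153), whereas in aged pachytene spermatocytes the middle set was higher by 0.44 (adjusted p = 0.000769) and the 5′ set by 1.04 (adjusted p = 0.0331).

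**Figure D4:**
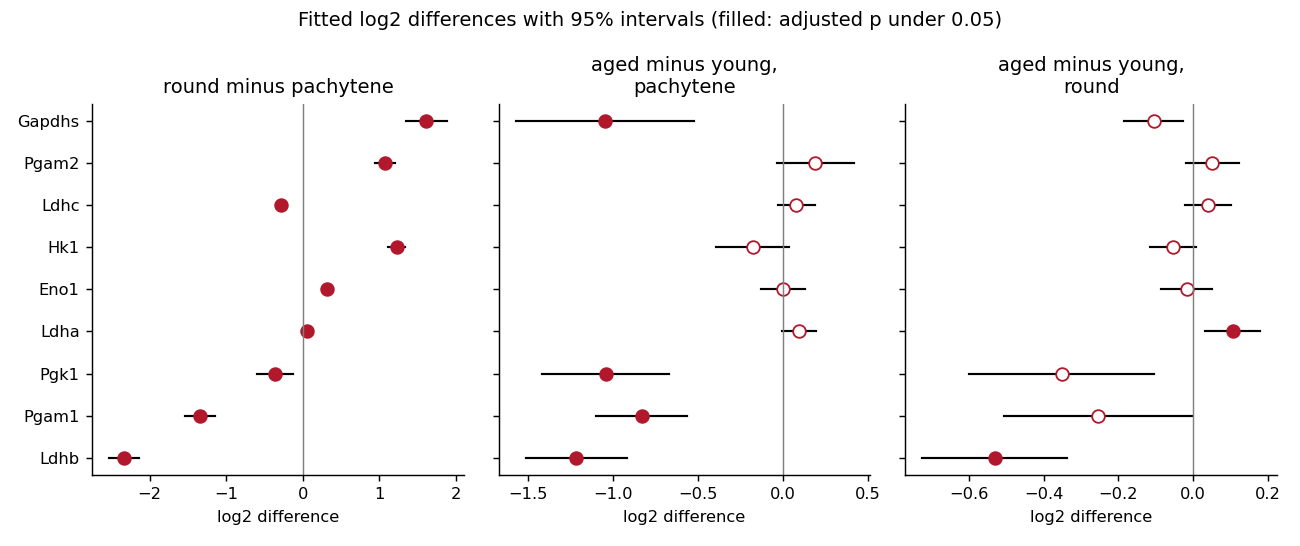
Fitted log2 differences of the 9 measured genes with 95% intervals, for round minus pachytene (left), aged minus young in pachytene spermatocytes (middle) and aged minus young in round spermatids (right). Filled points passed an adjusted p of 0.05. The horizontal axes differ in range: Ldhb is at -2.33, -1.22 and -0.53 in the 3 panels.

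The age effects of the 2 cell types were also set against each other in 1 model. The age effect in round spermatids minus that in pachytene spermatocytes was above 0 for 3 members and below 0 for 0 (limma). By an unadjusted p under 0.05 it was above 0 for 4, Pgk1 being the other, and below 0 for 0. These counts use the brightest probe set of each gene, which for Hk1 was at 0.13 (adjusted p = 0.45, limma). The hexokinase control sets of Hk1 were below 0, in the limma fit that included the control sets. The 3′ set was at -0.45 (adjusted p = 0.00397), the middle set at -0.74 (adjusted p = 0.000393) and the 5′ set at -1.53 (adjusted p = 0.0362). Among all genes 7.33% were called above 0 and 8.84% below. The difference was 0.97 ± 0.26 for Gapdhs (adjusted p = 0.0178), 0.80 ± 0.19 for Ldhb (adjusted p = 0.00812) and 0.68 ± 0.19 for Pgam1 (adjusted p = 0.0209, limma). For all 3 this means a smaller decrease with age in round spermatids on the log2 scale. In round spermatids Gapdhs was as bright as Ldhc, and Ldhb and Pgam1 lay nearer the floor than in pachytene spermatocytes. The part of compression near the ceiling or the floor in these differences was not tested. Without young rats 1, 10 and 11 the difference for Gapdhs was 0.46 (adjusted p = 0.0793). With the offset and median centring it was 0.58 (adjusted p = 0.0567, limma), so its call also turned on the scaling. Without aged rat 5 Gapdhs was at 0.92 (adjusted p = 0.0515) and Pgam1 at 0.62 (adjusted p = 0.0643), and without aged rat 8 Pgam1 was at 0.66 (adjusted p = 0.0537). For Pgk1 it was 0.51 (adjusted p = 0.138), and it passed with the offset alone (1.02, adjusted p = 0.000593) or with median centring (0.67, adjusted p = 0.0145), so the call for Pgk1 turned on the scaling.

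The somatic and testis isozymes were then compared within each array, as the log2 signal of the testis isozyme minus that of the somatic one. The ratio itself carries the unequal brightness of 2 probe sets, so only its change between groups is read. There were 12 such tests (4 pairs by 3 comparisons), adjusted together. With 6 arrays against 6 an exact permutation test cannot go below p = 0.00216, and with 12 rats a sign-flip test cannot go below 0.000488.

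In round spermatids 3 of 4 ratios were higher in 12 of 12 rats. Pgam2 over Pgam1 ran from 3.15 to 4.01 (median 3.68) in round spermatids, against 0.00 to 2.02 (1.32) in pachytene spermatocytes, a mean difference of 2.41. Ldhc over Ldhb ran from 4.55 to 5.79 (median 5.34) in round spermatids, against 1.81 to 4.35 (3.31) in pachytene spermatocytes, a difference of 2.05. Both shifts came with a lower somatic isozyme, joined in the first by a higher Pgam2.

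Gapdhs over Gapdh ran from 3.27 to 3.70 (median 3.56) in round spermatids, against 1.24 to 2.55 (1.60) in pachytene spermatocytes, a difference of 1.77. Ldhc over Ldha was the exception. It ran from 0.83 to 1.0 (median 0.89) in round spermatids, against 1.11 to 1.38 (1.25) in pachytene spermatocytes, and was lower in 12 of 12 rats by -0.33. Each of the 4 had an adjusted p of 0.00146 (exact sign-flip permutation over 12 rats, two-sided).

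With age, in pachytene spermatocytes, 3 of the 4 ratios passed the test. Ldhc over Ldhb ran from 3.55 to 4.11 (median 3.75) in aged cells, against 1.83 to 2.82 (2.66) in young cells, a difference of 1.29 with no overlap (adjusted p = 0.00371, exact permutation, two-sided). Pgam2 over Pgam1 ran from 1.47 to 1.81 (median 1.59) in aged cells, against 0.00 to 0.87 (0.68) in young cells, a difference of 1.02 with no overlap (adjusted p = 0.00371, exact permutation). In both pairs the somatic isozyme was lower, by -1.22 for Ldhb and -0.83 for Pgam1. The testis isozyme did not pass its own test, at 0.08 for Ldhc and 0.19 for Pgam2 (limma). Without young rats 1, 10 and 11 Pgam2 did pass, at 0.27 (adjusted p = 0.00853, limma), beside a ratio difference of 0.88.

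Gapdhs over Gapdh moved the other way, by -0.58 (adjusted p = 0.0449, exact permutation), with overlapping ranges of 1.10 to 1.86 in aged and 1.37 to 2.42 in young cells. Without young rats 1, 10 and 11 it was -0.14 (adjusted p = 0.452), and the call was lost in 9 of 12 tests that left out 1 rat. Without those 3 rats Ldhc over Ldhb, with no overlap, reached only an adjusted p of 0.0408 (exact permutation), so few arrays limit that setting. The 3 Gapdh control sets were themselves lower in aged pachytene spermatocytes, by -0.66, -0.89 and -0.47. Ldhc over Ldha differed by -0.02 (adjusted p = 0.753, exact permutation).

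In round spermatids Ldhc over Ldhb was higher in aged cells by 0.57, at 5.80 to 6.10 (median 5.96) against 4.89 to 5.59 (5.47) in young cells, with no overlap (adjusted p = 0.00371, exact permutation). The other 3 pairs overlapped between ages. Pgam2 over Pgam1 differed by 0.31 (adjusted p = 0.0364), Gapdhs over Gapdh by 0.17 (adjusted p = 0.0346) and Ldhc over Ldha by -0.07 (adjusted p = 0.026, exact permutation). The higher Gapdhs ratio came with no higher Gapdhs, which was at -0.11, while the 3 Gapdh control sets were at -0.28, -0.29 and -0.28 (limma). Each of these 3 ratios lost its call when young rats 1, 10 and 11 were left out, with adjusted p of 0.254, 0.286 and 0.254, and in 7, 7 and 2 of 12 tests that left out 1 rat. Their differences without those rats were 0.18, 0.07 and -0.06. With 3 young arrays left, Ldhc over Ldhb reached only an adjusted p of 0.0408 (exact permutation) despite no overlap. Few arrays thus limit that setting, and the part of those rats in the results of the other 3 pairs was not tested.

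**Figure D5:**
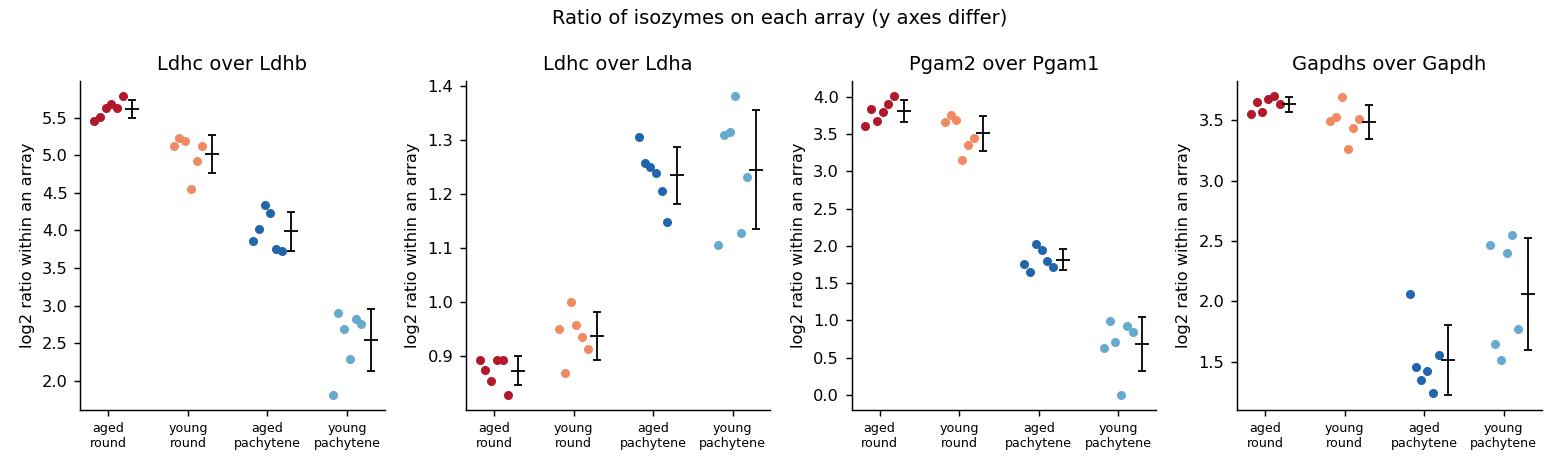
Log2 ratio of the testis isozyme to the somatic isozyme on each array (24 arrays on 1 scale), with the mean and SD of 6 arrays per group. Ldhc over Ldhb falls into 4 steps, highest in aged round spermatids and lowest in young pachytene spermatocytes, and Ldhc over Ldha is lower in round spermatids than on any pachytene array.

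The other enzymes of the pathway were counted on a list of 27 genes, of which 21 had a probe set. In round spermatids 14 were higher and 7 lower than in pachytene spermatocytes, where 49.7% of all genes were called higher and 38.6% lower. Those with the smallest p were Pklr, a pyruvate kinase (1.06), Pfkfb2 (1.86) and Pfkfb3 (0.56), which set the level of the activator of phosphofructokinase, Pdha2, the testis form of the pyruvate dehydrogenase subunit (-0.79), and Bpgm (1.12). Probe sets of the same gene disagreed for several of them. Other sets of Pfkfb2 were at -0.82, -0.23 and 0.07, other sets of Pfkfb3 at -0.42 and 0.01, and a second set of Bpgm at -0.07, whereas the second set of Pklr was also higher (0.23). Pdha1, the X-linked partner of Pdha2, was higher by 0.25 with its brightest set and lower by -0.14 with the other (adjusted p = 2.89e-08 and 0.000215, limma), so it has no settled direction here.

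In aged pachytene spermatocytes 8 of the 21 were higher, 6 lower and 7 not called, beside 25.5% higher and 19.3% lower among all genes. Pfkfb4 (0.50), Eno3 (0.47) and Pfkm (0.38) were higher by their brightest sets, and Aldoa, the aldolase that splits the hexose (-0.90), and Hk2 (-0.29) were lower. Pdha1 was lower by -0.31 (adjusted p = 0.0103) with the set that is brightest in pachytene arrays and by -0.17 (adjusted p = 0.0415) with the other, and Pdha2 differed by 0.16 (adjusted p = 0.109, limma). In aged round spermatids 3 were higher, 6 lower and 12 not called, beside 12.2% higher and 12.6% lower among all genes. Pfkp (0.39) and Pfkm (0.37) were higher there, and Gpi, the isomerase of the second step (-0.76), Pfkfb4 (-0.65) and Pdha2 (-0.15) were lower. The 2 probe sets of Pfkfb4 conflict in both cell types: the set at -0.65 in round spermatids was at -0.69 (adjusted p = 0.065) in pachytene spermatocytes, and the set at 0.50 in pachytene spermatocytes was at 0.11 (adjusted p = 0.052) in round spermatids. Its values with age therefore do not compare the cell types. The age effect differed between cell types for 4 of the 21, Aldoa (0.82) and Tpi1 (0.61) above 0 and Pdha2 (-0.30) and Pfkfb3 (-0.20) below, with other sets of Pfkfb3 at 0.21 and 0.08 that did not pass. Among all genes 7.33% were called above 0 and 8.84% below, so this count is near the background.

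Over the 12 pachytene arrays, the genes whose levels ran most like Ldhb were Tmsb4x, Aqp8 and Gpc4, each with a Pearson r of 0.998. Those most like Pgk1 were Cnih1, Gamt and Enpp5, each at 0.994. Without young rats 1, 10 and 11 these 6 stayed at 0.986 to 0.997 over 9 arrays. Those most like Ldhc were Hspa4l (0.985), Cramp1 (0.983) and Ttc23 (0.983), and over the 9 arrays they were at 0.768, 0.628 and 0.693. The likeness to Ldhc was thus weaker without those 3 rats. All these genes were picked for their r over the 12 arrays, and the cause of the lower r was not tested. The arrays share the division by age, and these values describe the arrays with no test.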

How the data were processed

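Affymetrix rat arrays measured total RNA of round spermatids and pachytene spermatocytes from 6 aged and 6 young rats, with 6 arrays in each of 4 groups. The deposited values are log2 signals for 31099 probe sets; how probes were summarised into probe sets is not stated in the sources used here. The number of arrays limits the precision.

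Age was tested within each cell type after quantile normalization of its 12 arrays. For comparisons across cell types, 90.3 was added to the linear pachytene signals so that 45 non-rat control probe sets matched (round minus pachytene 0.61 ± 0.77 before and -0.03 ± 0.17 after, SD over probe sets), and 24 arrays were quantile normalized. Folds of dim probe sets are compressed by this. limma 3.58.1 (lmFit and eBayes, R 4.3.3) was fitted to 31042 probe sets without 57 control sets, and p-values were adjusted by Benjamini-Hochberg. The test was checked on simulated data. Isozyme ratios were tested by exact permutation (scipy 1.17.1).

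Of 31042 probe sets 20826 carry 1 symbol (14217 genes). All 10 members were to be named, and of the other glycolysis genes up to 5 with the smallest p per comparison, plus Gapdh, Pdha1 and Pdha2. The members and lists were chosen with earlier results of these data known.

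Both fractions of a rat were paired by age and number in the labels. Own fractions correlated at -0.08 to 0.38 after group means were removed, and 6 of 12 rats matched best with themselves. Numbers shared between aged and young rats name different rats. Alternatives covered scaling, dim probe sets, variance moderation, the probe set of a gene, left-out rats and blocks.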

Additional observations from a re-analysis of the deposited data

Results flagged for a closer look

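Of 76 groups of 6 arrays, 5 held an array far from the others, about as many as chance gives (about 1 in 20). Eno1 was at 12.851 in young pachytene spermatocytes of rat 1, with the next array at 12.626. Gapdhs was at 12.833 in aged pachytene spermatocytes of rat 2, with the next at 12.399. Ldhc was at 14.504 in aged round spermatids of rat 3, with the next at 14.53, a narrow gap in a tight group. The 3′ control set of Hk1 was at 10.232 in young pachytene spermatocytes of rat 1, with the next at 9.869. The log2 ratio of Pgam2 over Pgam1 was 0.001 in young pachytene spermatocytes of rat 10, with the next at 0.56.

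The age effect differed between the cell types for 3 members, counted by their brightest probe sets, by an interaction test in limma. The effect in round spermatids minus that in pachytene spermatocytes was 0.9682 for Gapdhs (adjusted p = 0.0178), 0.8033 for Ldhb (adjusted p = 0.00812) and 0.6781 for Pgam1 (adjusted p = 0.0209). Sertoli cell markers (5 of 15) and late spermiogenesis markers (9 of 12) also differed in that direction, and their part was not tested.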

How the results depend on the processing

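Other scalings moved the median age difference of all 31042 probe sets in pachytene spermatocytes to -0.24 (deposited values), 0.14 (median centring) and -0.12 (hybridization controls), against 0.05 after quantile normalization, and in round spermatids to 0.14, 0.01 and 0.18, against 0.001. Calls of members in aged pachytene spermatocytes were 0 higher and 4 lower. The number higher was 4 with median centring, 1 with hybridization controls, 1 without young rats 1, 10 and 11, and 0 to 1 with any rat left out (1 without young rat 1). In aged round spermatids 1 was higher and 1 lower. The number higher was 0 with deposited values, median centring, hybridization controls, trended and robust moderation or without young rats 1, 10 and 11, and 0 to 1 with any rat left out. The number lower was 3 with median centring, 2 without the 40% dimmest probe sets, 2 with trended and robust moderation, 3 with the mean of all probe sets, and 1 to 3 with any rat left out (3 without aged rat 2). For the difference of age effects, the offset with median centring gave 4 members below 0, against 0, and turned Ldha to -0.29 (adjusted p = 0.0166). In that setting Gapdhs lost its call, at 0.58 (adjusted p = 0.0567, limma). The members above 0 numbered 1 to 3 with any rat left out (1 without aged rat 5). The causes were not tested.

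With the replicate number as a block, 1 member was lower in aged pachytene spermatocytes, and in aged round spermatids 0 were lower and 0 higher. The numbers 2, 3 and 10 shared between ages name different rats, so the block removes degrees of freedom without pairing. With the rat as a block, no count of members called between cell types or for the difference of age effects moved by over 1.5 times.

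Among the ratios, Gapdhs over Gapdh in aged pachytene spermatocytes was -0.48 with deposited values (adjusted p = 0.0779), -0.38 with the mean of all probe sets (adjusted p = 0.102), -0.14 without young rats 1, 10 and 11 (adjusted p = 0.452) and -0.69 to -0.48 with any rat left out (exact permutation). In aged round spermatids it was -0.10 with deposited values, turned in sign (adjusted p = 0.0779), 0.0686 without the 3 rats (adjusted p = 0.286) and 0.12 to 0.22 with any rat left out. Pgam2 over Pgam1 in aged round spermatids was 0.11 with deposited values (adjusted p = 0.223), 0.18 without the 3 rats (adjusted p = 0.254) and 0.23 to 0.36 with any rat left out. Ldhc over Ldha in aged round spermatids was -0.0562 without the 3 rats (adjusted p = 0.254) and -0.0804 to -0.0522 with any rat left out. Without the 3 rats the ratios that kept their call with age had an adjusted p of 0.0408 (exact permutation), so few arrays limit that setting.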
